A study of Homo sapiens with 8 samples.

Results

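Untreated cells of the colorectal adenocarcinoma lines SW480 and SW620 were compared through their control libraries, 2 from SW620 and 2 from SW480, which are 4 of the 8 libraries in the series. The libraries were chosen by cell line and treatment label, and no measured value was used. The series concerns caffeine and the immunoproteasome, and its other 4 libraries come from caffeine-treated cells of the same lines. Those libraries shared the estimate of the spread in the fit and gave a second comparison of the lines. The cells are derivatives named SW620B8-mCherry and SW480-B8mCherry, which express PSMB8 fused to mCherry. The fusion makes their immunoproteasomes fluorescent, so neither group is an unmodified parental line. Both lines were kept in DMEM with fetal calf serum, penicillin and streptomycin, and the control cells had no treatment. The labels do not say whether a modified line is 1 clone. They state biological replicates without saying what separated them, so the p-values measure the spread between these samples.

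SW480 was established from a primary colon tumour and SW620 from a later lymph node metastasis of the same patient, and the pair is a common model for comparing early and late stages of 1 disease. Colon epithelium is set up by transcription factors such as CDX2 and HNF4A, held together by junctions built on E-cadherin and claudins, and renewed by Wnt-dependent stem cells at the base of the crypt. Cells that lose E-cadherin and gain motility are described as undergoing epithelial-mesenchymal transition (EMT), a change that many signalling pathways can drive.

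The SW480 control libraries held 16433958 and 17534930 reads assigned to genes, and the SW620 control libraries 19599618 and 19758170. Levels are CPM, the counts of a gene scaled to the library's assigned reads with TMM factors, given for replicates 1 and 2 in that order, and 1 library's limit for a count of 0 lay between 0.152 and 0.183 CPM, which covers counting error only. Differences are SW620 minus SW480 on the log2 scale, ± SE. The correlation of log2 CPM over genes was 0.989 within the SW480 and 0.994 within the SW620 controls, and 0.817 to 0.819 between the lines. The SW480 pair was less alike than the SW620 pair, with a biological coefficient of variation of 13.0% against 3.72%. Mitochondrial genes took 4.92% to 6.16% of the assigned reads.

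The 2 lines differed over most of the expressed genome. Of 17671 genes tested, 11591 (65.6%) were called by edgeR's quasi-likelihood test at an adjusted p under 0.05, 5830 (33%) higher and 5761 (32.6%) lower in SW620. A difference beyond 2-fold, tested as such, was called for 4875 genes (27.6%), 2423 (13.7%) higher and 2452 (13.9%) lower. These shares are the background against which each gene list is read. The median log2 difference (SW620 minus SW480) over all tested genes was 0.03 and the median of its size was 0.77, and the scaling of the libraries sets the middle of the differences near 0. Over the 13645 protein-coding genes tested, 30.7% were higher and 37.2% lower. The control libraries of the lines did not overlap for 83.4% of the tested genes.

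**Figure D1:**
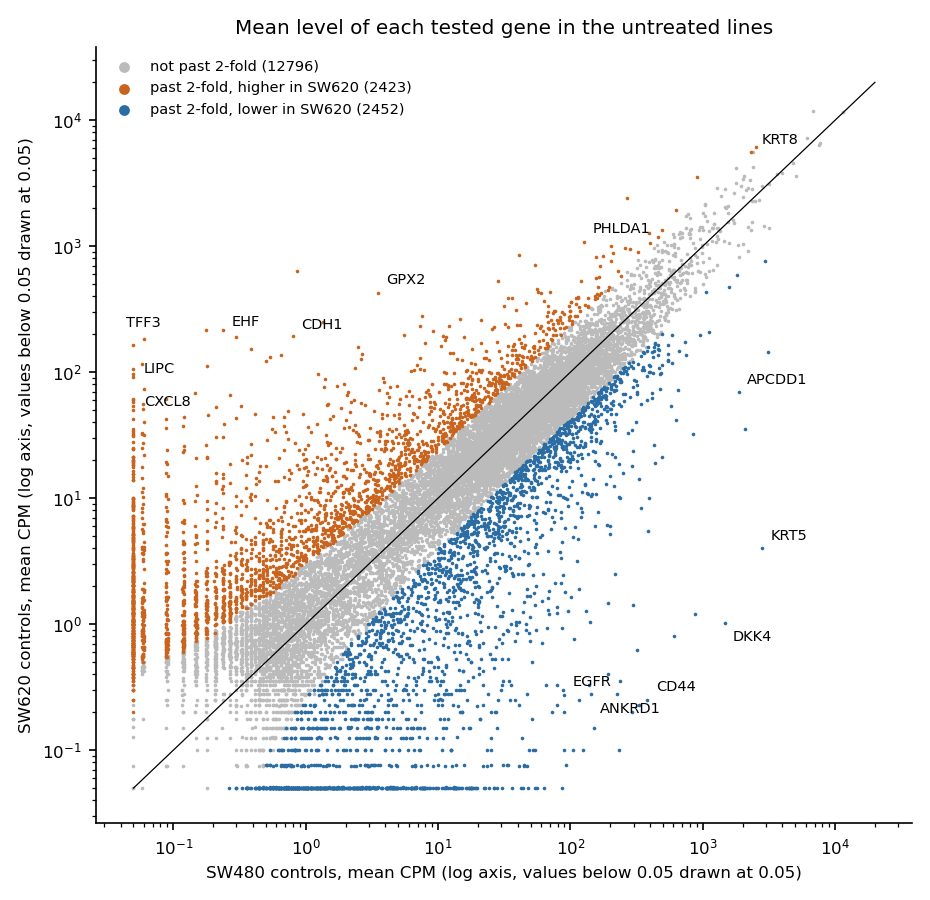
Each point is 1 of 17671 tested genes, placed by its mean CPM in the SW480 controls (x, log axis) and the SW620 controls (y, log axis), with the diagonal marking equal levels and values below 0.05 drawn at 0.05. Orange points (2423) and blue points (2452) passed the 2-fold test, and the columns and rows of points along the edges are genes with few or no counts in 1 line.

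The labelled cell type was checked against fixed marker lists. Of 10 colon epithelial markers 8 were higher in SW620 and none lower, and CDX2 and LGALS4 were not called. Their summed level was 4650 to 5877 CPM in SW480 and 10820 to 10867 CPM in SW620. Most of the sum in both lines came from the simple epithelial keratins KRT8, KRT18 and KRT19. KRT20, a keratin of mature colon epithelium, had no count in SW480 and 0.607 and 0.601 CPM in SW620. Markers of other cell types were low: 10 fibroblast markers summed to 5.99 and 6.21 CPM in SW480 and 38.1 and 40.5 CPM in SW620, with COL3A1, POSTN and DPT at 0 in all 4 libraries. Most of the SW620 sum was LUM, a matrix proteoglycan, with no count in SW480 and 30.2 and 33.4 CPM in SW620, at least 357 times higher. The 11 leukocyte markers summed to between 2.33 and 5.02 CPM with PTPRC, CD2 and MS4A1 at 0 in all 4 libraries. The 8 endothelial markers summed to 33.5 to 43.1 CPM in SW480 and 17.8 to 19.3 CPM in SW620, with KDR at 0 throughout. EGFL7 made most of the SW480 sum and was lower in SW620 (29.8 and 40.4 against 7.59 and 9.27 CPM), while PECAM1 (0.242 and 0.759 against 6.22 and 6.41 CPM) and VWF (1.45 and 1.34 against 3.04 and 2.91 CPM) were higher. PSMB8 counts hold reads of the cell's own gene and of any fusion transcript alike, and PSMB8 measured 24.7 and 35.6 CPM in SW480 and 36.03 and 33.3 CPM in SW620, and its log2 difference of 0.20 ± 0.16 (SE, adjusted p = 0.291) did not pass the test.

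Some genes had reads in 1 line only. In all, 44 genes had no count in the SW480 controls and at least 5 CPM in both SW620 controls, and 36 genes showed the reverse. Of these, 21 and 23 also had no count in the caffeine libraries of the line that lacked them. Among the 20 largest increases, PEG10, an imprinted gene derived from a retrotransposon, had 164 and 166 CPM in SW620 and no count in SW480, at least 1853 times higher against a floor of 3 counts over both SW480 libraries. LIPC, a secreted lipase, had 106 and 108 CPM (at least 1200 times), MACC1, a regulator linked to colon cancer metastasis, 94.3 and 99.6 CPM (at least 1088 times) and TOX3, a chromatin-binding factor, 56.4 and 60.4 CPM (at least 656 times). In the other direction, PHLDB2, which helps anchor microtubules at focal adhesions, had 54.2 and 42.3 CPM in SW480 and no count in SW620, at least 639 times higher in SW480. A lower share of expressing cells and less RNA per cell cannot be told apart in these bulk libraries.

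Promoter sequences of genes in these sets are shown because CpG content differed between the promoters of the gene sets, as described after them. For each line the 3 windows with the largest fold bound are given among the 17 of 42 windows that hold no exon annotated in GENCODE 29, as the 250 bases before the annotated start (RefSeq, GRCh38.p14), 5′ to 3′ on the gene's strand, with every CG in capitals. These 6 genes were picked after their values were seen. The first 3 had counts in SW620 only. SEMA3D, a secreted guidance factor, measured 20.5 and 19.4 CPM there (chr7:85187057-85187306, minus strand), TMEM178B, a membrane protein, 20.2 and 18.3 CPM (chr7:141073814-141074063, plus strand), and AGMO, an ether lipid oxidase, 14.6 and 14.8 CPM (chr7:15562016-15562265, minus strand).
SEMA3D: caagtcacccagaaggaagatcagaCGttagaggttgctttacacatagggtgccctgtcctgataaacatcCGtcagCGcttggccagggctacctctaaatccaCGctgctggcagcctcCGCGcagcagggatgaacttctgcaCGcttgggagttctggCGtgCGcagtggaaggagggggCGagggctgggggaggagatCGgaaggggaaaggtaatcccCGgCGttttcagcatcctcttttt
TMEM178B: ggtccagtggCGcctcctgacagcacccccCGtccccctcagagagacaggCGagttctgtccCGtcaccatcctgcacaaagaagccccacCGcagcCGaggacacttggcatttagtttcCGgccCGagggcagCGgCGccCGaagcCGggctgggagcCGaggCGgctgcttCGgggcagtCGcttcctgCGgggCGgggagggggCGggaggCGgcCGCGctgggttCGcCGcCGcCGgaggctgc
AGMO: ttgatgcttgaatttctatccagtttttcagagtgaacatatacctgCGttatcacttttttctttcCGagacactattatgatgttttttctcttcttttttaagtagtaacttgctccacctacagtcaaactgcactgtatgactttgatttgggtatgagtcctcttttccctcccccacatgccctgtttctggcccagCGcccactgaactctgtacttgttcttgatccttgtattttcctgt
The next 3 had counts in SW480 only. CRYGN, a crystallin, measured 21.7 and 23.2 CPM there (chr7:151440814-151441063, minus strand), IRX2, a homeobox factor, 14.3 and 15.5 CPM (chr5:2751678-2751927, minus strand), and CHST10, a sulfotransferase, 12.2 and 14.2 CPM (chr2:100417669-100417918, minus strand).
CRYGN: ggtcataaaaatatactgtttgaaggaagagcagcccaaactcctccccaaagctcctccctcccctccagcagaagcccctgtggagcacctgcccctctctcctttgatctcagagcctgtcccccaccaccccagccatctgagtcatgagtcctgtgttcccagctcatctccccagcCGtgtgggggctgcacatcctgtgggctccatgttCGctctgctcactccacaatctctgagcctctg
IRX2: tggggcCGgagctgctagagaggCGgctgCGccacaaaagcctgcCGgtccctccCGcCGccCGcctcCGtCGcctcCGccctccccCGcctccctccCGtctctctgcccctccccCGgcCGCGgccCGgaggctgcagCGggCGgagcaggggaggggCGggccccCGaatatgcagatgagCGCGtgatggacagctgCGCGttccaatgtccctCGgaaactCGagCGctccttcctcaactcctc
CHST10: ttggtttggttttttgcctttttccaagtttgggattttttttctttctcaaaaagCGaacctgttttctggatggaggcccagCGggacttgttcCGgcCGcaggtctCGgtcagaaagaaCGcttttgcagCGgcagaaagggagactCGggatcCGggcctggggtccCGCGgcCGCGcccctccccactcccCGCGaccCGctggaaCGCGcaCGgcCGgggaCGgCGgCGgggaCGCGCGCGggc
The 6 windows held 13, 26, 3, 2, 27 and 27 CG dinucleotides in the order shown, so both sets held windows rich and poor in CG. The IRX2 window also holds the RefSeq start of IRX2-DT, a divergent gene without a count in the SW620 controls. IRX2-DT is typed as protein-coding in GENCODE 29. Its own window overlaps that of IRX2, and both are among the 25 promoters described next.

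Promoters of genes higher in SW620 had a lower CpG ratio than those of the other tested genes. The ratio of observed to expected CpG had a median of 0.651 over 1184 matched promoters of genes past 2-fold higher in SW620, 0.775 over 1598 of genes past 2-fold lower and 0.833 over 8213 of genes not past 2-fold. A ratio above 0.6 was found in 54.7%, 72.3% and 82.4% of them. The 17 promoters of genes without a count in the SW480 controls had a median ratio of 0.296 and a median GC content of 45.6%, and the 25 of genes without a count in the SW620 controls 0.746 and 64%. These values describe sequence composition, were not tested, and cover 10995 protein-coding genes with an entry, while 2650 had none.

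Transcription factors of the intestinal lineage separated the lines, mostly with higher levels in SW620. Of 22 tested factors 14 were higher and 6 lower in SW620 (13 and 4 past 2-fold), with a median log2 difference of 1.71. EHF, an epithelial ETS factor on chromosome 11 from 34621093 to 34661057 (GRCh38), had 0.303 and 0.175 CPM in the SW480 and 212 and 219.5 CPM in the SW620 controls, a log2 difference of 9.79 ± 0.23 (SE, adjusted p = 6.17e-15). ESRP1, which directs epithelial splicing, had 5.87 and 5.14 against 184 and 211 CPM (5.17 ± 0.16, adjusted p = 5.74e-14). HNF4G, a nuclear receptor of gut epithelium, had 2 counts in SW480 and 21.3 and 23.1 CPM in SW620, a ratio of 373 (95% counting interval 103 to 3084). The libraries of the lines did not overlap for any of these 3 genes, nor for 83.4% of all tested genes.

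FOXA3 (2.24 and 2.33 against 36.1 and 34.03 CPM) and ELF3, a second ETS factor (16.9 and 15.8 against 104 and 99.9 CPM), were also higher in SW620. So were, named after their values were seen, ISX, an intestine-specific homeobox factor (0.121 against 6.70 CPM on average), and the crypt factor KLF5 (109 against 345). Factors lower in SW620 included PDX1 (-4.29 ± 0.32), NR5A2, FOXA1 and HNF4A, of which PDX1, NR5A2 and FOXA1 were chosen after their values were seen. NR5A2 had 4.72 and 3.79 CPM in SW480 and 3 counts in SW620, a ratio of 56.2 (95% counting interval 18.9 to 276) in favour of SW480, and FOXA1 had 1.63 and 1.28 CPM in SW480 and no count in SW620.

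CDX2 and HNF4A, the factors most used to define colon epithelium, differed little. CDX2 measured 141 and 142 CPM in SW480 and 134 and 128 CPM in SW620, a log2 difference of -0.11 ± 0.11 (SE, adjusted p = 0.419) that did not pass the test. HNF4A measured 91.3 and 81.02 against 70.4 and 68.6 CPM (-0.31 ± 0.13, adjusted p = 0.0456). The HNF4A call was lost with library totals in place of TMM (adjusted p = 0.0693), with the replicate number as a block (0.0645), and without SW480 control replicate 1 (0.178), SW620 control replicate 1 (0.132) or SW620 control replicate 2 (0.189).

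Several genes of differentiated colon epithelium were higher in SW620. Of 40 listed genes 16 passed the filter on low counts, and of these 11 were higher and 2 lower in SW620. The other 24 were too low to test, and a gene absent from 1 line passed only through the line that has it, so these counts are a description. The median log2 difference was 3.44, or 2.66 with the 6 genes at 0 in 1 line set to their bound. TFF3, the trefoil peptide of goblet cells, had 2 counts in SW480 and 180.2 and 184 CPM in SW620, a ratio of 3062 (95% counting interval 847 to 25289). AGR2, a disulfide isomerase needed for mucin folding, had no count in SW480 and 18.3 and 16.8 CPM in SW620, at least 197 times higher.

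VIL1, CDH17, MUC13 and TSPAN8 of that list were present in both lines at different levels. VIL1, which bundles actin in the brush border, measured 61.3 and 53.5 CPM in SW480 and 431 and 437 CPM in SW620 (log2 difference 2.92 ± 0.12, adjusted p = 2.55e-12). CDH17, the liver-intestine cadherin, measured 0.605 and 0.525 against 42.4 and 46.01 CPM, and the membrane mucin MUC13 12.1 and 8.87 against 165 and 160.1 CPM. Tetraspanin TSPAN8 had 1.09 and 1.75 CPM in SW480 and 29.4 and 34.1 CPM in SW620. The 2 genes lower in SW620, named after their values were seen, were the intestinal alkaline phosphatase ALPI (4.24 and 4.26 CPM in SW480 and no count in SW620, at least 56.2 times higher in SW480) and MUC12 (0.908 and 0.759 CPM and no count). None of these genes had overlapping libraries, which also held for 83.4% of all tested genes.

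All 15 tested keratins, the intermediate filaments of epithelial cells, were called, 9 higher and 6 lower in SW620. KRT5, a keratin of basal squamous cells, measured 2696 and 2955 CPM in SW480 and 3.49 and 4.56 CPM in SW620, a log2 difference of -9.45 ± 0.20 (SE, adjusted p = 3.73e-15). KRT6A, a keratin of stressed squamous epithelium, had 21.4 and 20.1 against 0.202 and 0.150 CPM. The simple epithelial keratins that define the colon were higher in SW620 by less: KRT8 measured 2092 and 2697 against 5677 and 5513 CPM (1.22 ± 0.15, adjusted p = 1.85e-06), KRT19 315 and 422 against 775 and 760.1 CPM (1.06 ± 0.16, adjusted p = 1.47e-05) and KRT18 1850 and 2528 against 2829 and 2923 CPM (0.39 ± 0.16, adjusted p = 0.0376).

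KRT7, found in ductal more than in colon epithelium, had 0.847 and 1.17 CPM in SW480 and 21.96 and 19.1 CPM in SW620, and KRT15 and KRT17 were higher in SW620 too (3.85 ± 0.22 and 4.84 ± 0.41). KRT81, a hair keratin, was lower (-2.53 ± 0.20). Without SW480 control replicate 1 the KRT18 difference was 0.17 and lost its call (adjusted p = 0.314), as it did without SW620 control replicate 1 (0.119) or 2 (0.164) and in a fit of the 4 control libraries alone (0.0530). Keratins are a family of similar genes, and reads that fit several members may have been left out of these counts.

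Enteroendocrine and neuronal-type genes were lower in SW620 more often than higher, 9 against 5 of 15 tested, with a median log2 difference of -1.57. NCAM1, a neural adhesion molecule, had 41.2 and 31.1 CPM in SW480 and 1 count in SW620, a ratio of 1431 (95% counting interval 256 to 56579) in favour of SW480. PCSK1, which processes prohormones, had 10.7 and 12.02 CPM against 3 counts (ratio 151, 95% counting interval 51.2 to 734), and SNAP25, a vesicle fusion protein, 8.35 and 7.06 against 0.708 and 0.752 CPM. SYT1, a calcium sensor of vesicle release, was higher in SW620, at 16.8 and 14.6 against 189 and 192 CPM (3.60 ± 0.14, adjusted p = 8.54e-13). The other 4 that were higher, named after their values were seen, were GAP43 (2.48 ± 0.28), NRCAM (2.59 ± 0.33), TPH1 (2.003 ± 0.41) and SCG2, which had 2 counts in SW480 and lost its call without SW480 control replicate 1 (adjusted p = 0.102).

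HOX genes, which record position along the body axis, were mostly lower in SW620: 24 of 33 tested were lower and 5 higher (15 and 1 past 2-fold), with a median of -1.12. HOXD13 measured 6.60 and 5.19 CPM in SW480 and 0.455 and 0.301 CPM in SW620 (-3.94 ± 0.37, adjusted p = 6.6e-08). HOXA5, HOXA7, HOXB2 and HOXB8 had log2 differences between -2.99 and -2.18. The 5 higher genes, named after their values were seen, were HOXC13 (1.36 ± 0.15), HOXB9 (0.66 ± 0.13), HOXB4 (0.63 ± 0.17), HOXC10 (0.62 ± 0.14) and HOXD9 (0.42 ± 0.15), and no HOXA gene was among them. Without SW620 control replicate 1, 3 HOX genes were higher. HOXB4 lost its call without SW620 control replicate 1 (adjusted p = 0.0679). HOXD9 lost it without SW480 control replicate 1 (0.181), SW620 control replicate 1 (0.100) or SW620 control replicate 2 (0.110) and in DESeq2 (0.0517). Of 24 cancer-testis antigens, which are normally silent outside the germ line, 3 passed the filter, and MAGEB2 was the 1 called, with no count in SW480 and 0.152 and 0.451 CPM in SW620. That call was lost without SW620 control replicate 2 (adjusted p = 0.0805).

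Epithelial junction genes were higher in SW620 more often than lower. Of 35 tested members 18 were higher and 6 lower (9 and 2 past 2-fold), and the median log2 difference was 0.45. CDH1, which encodes E-cadherin and lies on chromosome 16 from 68737225 to 68835548 (GRCh38), had 0.908 and 0.700 CPM in the SW480 controls and 192 and 199 CPM in the SW620 controls. Its log2 difference was 7.92 ± 0.21 (SE, adjusted p = 1.12e-14), and the libraries of the lines did not overlap, as for 83.4% of all tested genes. CLDN1, a tight junction claudin, had 10.9 and 13.2 against 237 and 232 CPM (4.28 ± 0.16, adjusted p = 4.42e-13).

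EPCAM, an epithelial adhesion molecule, was expressed in both lines, at 163 and 170.5 CPM in SW480 and 696 and 705 CPM in SW620 (2.07 ± 0.13, adjusted p = 2.4e-10). The tight junction proteins MARVELD3 (0.605 and 1.05 against 26.3 and 28.3 CPM), CGN (6.05 and 5.14 against 35.1 and 29.02 CPM) and F11R (14.6 and 15.4 against 66.6 and 69.9 CPM) were also higher in SW620. Annotated exons of F11R share bases with another gene on the same strand, so its counts may leave out reads. CTNNB1, beta-catenin, was lower in SW620 (732 and 735 against 439 and 456 CPM, -0.71 ± 0.13). CDH3, P-cadherin, had 1.63 and 1.11 CPM in SW480 and 2 counts in SW620, a ratio of 27.1 (95% counting interval 7.10 to 231) in favour of SW480. CTNNB1 and CDH3 were chosen after their values were seen.

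**Figure D2:**
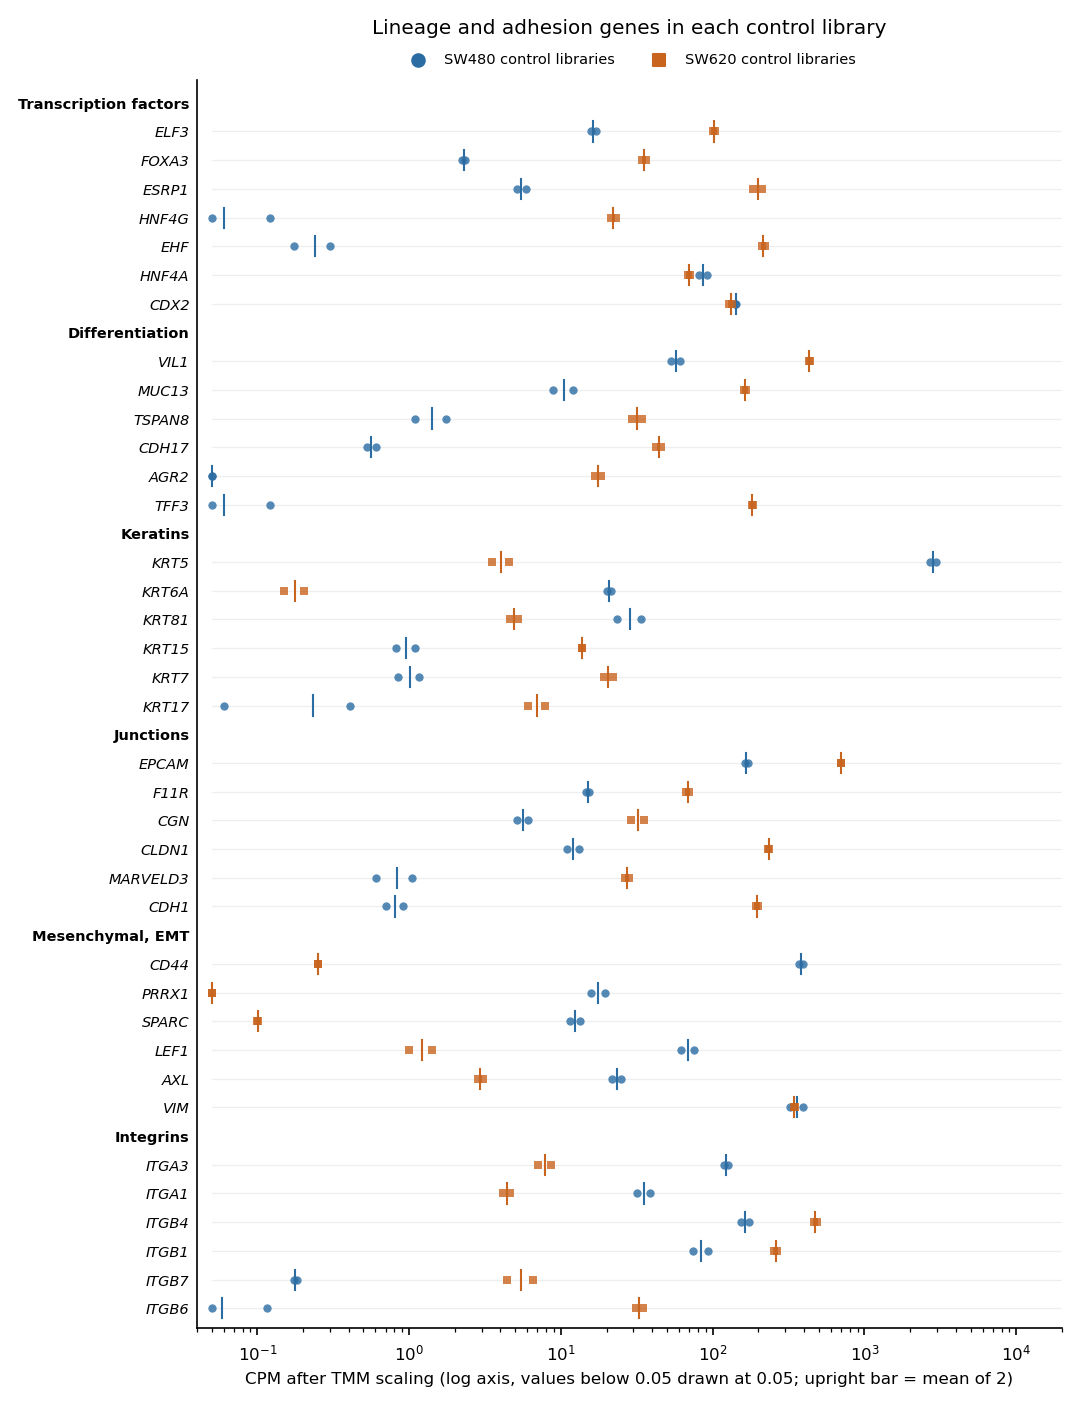
CPM (x, log axis, values below 0.05 drawn at 0.05) of lineage and adhesion genes in each SW480 control library (blue circles) and SW620 control library (orange squares), with an upright bar at the mean of 2. CDX2, HNF4A and VIM lie close together in both lines, while EHF, CDH1, KRT5 and CD44 lie far apart.

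Genes of mesenchymal state and EMT regulation were mainly lower in SW620. Of 18 tested 13 were lower and 2 higher (8 and 0 past 2-fold), with a median of -1.22. CD44, a hyaluronan receptor and stem cell marker on chromosome 11 from 35138870 to 35232402, had 393 and 369 CPM in SW480 and 0.253 and 0.251 CPM in SW620, a log2 difference of -10.53 ± 0.23 (SE, adjusted p = 3.73e-15). PRRX1, a mesenchymal homeobox factor, had 19.7 and 15.7 CPM against 1 count (ratio 701, 95% counting interval 125 to 27730). LEF1, a partner of beta-catenin in the nucleus, had 74.9 and 61.9 against 1.42 and 1.002 CPM (-5.81 ± 0.24, adjusted p = 1.56e-12).

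SPARC, a matrix glycoprotein, had 13.4 and 11.4 CPM in SW480 and 0.101 and 0.100 CPM in SW620, and the receptor kinase AXL 21.7 and 24.98 against 2.83 and 3.06 CPM. FN1, fibronectin, named after its values were seen, had 137 and 103 against 21.8 and 23.1 CPM. The EMT repressor of CDH1, ZEB1, was lower, with a log2 difference of -1.02 ± 0.18 (SE, adjusted p = 8.85e-05), at 30.2 and 23.4 CPM in SW480 and 13.9 and 12.6 CPM in SW620, so it was present in both lines. SNAI1 (1.18 ± 0.14) and SNAI2 (1.08 ± 0.22), further repressors of CDH1 and both chosen after their values were seen, were the 2 members higher in SW620. VIM, vimentin, the filament protein of mesenchymal cells, measured 322 and 396 CPM in SW480 and 343 and 347 CPM in SW620, the libraries overlapped, and the difference of -0.06 ± 0.15 (SE, adjusted p = 0.749) did not pass the test.

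Integrins, the receptors that tie cells to matrix, were split, 8 of 17 higher and 7 lower in SW620, with a median of -0.19 (1.04 in the caffeine libraries). ITGB6, an epithelial subunit that activates latent TGF-beta, had 2 counts in SW480 and 34.6 and 31.2 CPM in SW620, a ratio of 553 (95% counting interval 153 to 4571). The laminin receptor subunit ITGB4 had 172 and 153 against 486 and 465 CPM (1.55 ± 0.12, adjusted p = 7.14e-09), and its partner ITGA6, named after its values were seen, 194 and 163 against 396 and 405 CPM (1.17 ± 0.13). The common subunit ITGB1 was higher too (92.8 and 74.01 against 255 and 265 CPM), and so were ITGB7 (4.89 ± 0.39) and the collagen receptor subunit ITGA2 (1.55 ± 0.18). ITGA3, another laminin receptor subunit, was lower, at 119 and 125 against 8.55 and 7.12 CPM (-3.96 ± 0.15, adjusted p = 8.48e-13), as were ITGA1 (-2.999 ± 0.19) and the vitronectin receptor subunits ITGAV (-1.37 ± 0.16) and ITGB5 (-1.31 ± 0.11). ITGA2, ITGAV and ITGB5 were chosen after their values were seen.

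Matrix genes and their remodelling enzymes were higher for 13 and lower for 17 of 34 tested, with a median of -0.15, and 15 and 12 in the caffeine libraries. COL9A3, a chain of a fibril-associated collagen, had 479 and 503 CPM in SW480 and 20.7 and 21.8 CPM in SW620 (-4.53 ± 0.18, adjusted p = 1.32e-12), and COL13A1, a transmembrane collagen, 14.5 and 12.4 CPM against no count, at least 178 times higher in SW480. The heparan sulfate proteoglycan GPC1 (121 and 145 against 11.6 and 10.5 CPM) and the protease inhibitor TIMP3 (21.4 and 19.1 against 1.62 and 1.45 CPM) were lower in SW620. LAMB3, a laminin chain of epithelial basement membrane, was higher, with 10.8 and 11.7 against 182 and 178 CPM (3.99 ± 0.16, adjusted p = 1.56e-12). TNC, tenascin C, a matrix protein of tumour stroma, had 7.56 and 8.35 against 168 and 173 CPM (4.42 ± 0.14, adjusted p = 8.99e-14), and MMP7, the epithelial matrilysin, named after its values were seen, no count in SW480 and 4.86 and 5.26 CPM in SW620.

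Other surface adhesion molecules were split, 11 of 27 higher and 13 lower in SW620 with a median of -0.01. CD24, a surface glycoprotein, had 0.545 and 0.525 CPM in SW480 and 136 and 129 CPM in SW620 (7.93 ± 0.22, adjusted p = 2.57e-14), and ALCAM, an immunoglobulin-type adhesion molecule, 0.424 and 0.409 against 47.3 and 46.2 CPM (6.79 ± 0.23, adjusted p = 1.92e-13). In the other direction stood CADM1 (201 and 179 against 22.3 and 23.6 CPM), MCAM (58.7 and 58.2 against 4.96 and 4.86 CPM), L1CAM (76.1 and 65.8 against 6.68 and 4.71 CPM) and the tetraspanin CD82 (121 and 135 against 10.9 and 14.4 CPM), a suppressor of metastasis. CEACAM5, which encodes the antigen CEA, was low in both, with no count in SW480 and 0.658 and 0.702 CPM in SW620. It was named after its values were seen.

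Of 32 glycolysis and lactate genes 7 were higher and 15 lower in the SW620 controls, with a median of -0.28. In the caffeine libraries 14 were higher and 9 lower, with a median of 0.19. SLC2A3, a high-affinity glucose transporter, had 889.8 and 811 CPM in SW480 and 35.3 and 29.2 CPM in SW620, a log2 difference of -4.72 ± 0.15 (SE, adjusted p = 9.82e-14). SLC2A1, the main glucose transporter of tumour cells, and LDHA, which makes lactate, were lower by less (-0.88 ± 0.12, adjusted p = 9.21e-06 and -1.20 ± 0.13, adjusted p = 6.06e-07), and GAPDH did not pass the test (-0.04 ± 0.15, adjusted p = 0.825). These 3 were chosen after their values were seen. HK1, which traps glucose in the cell (144 and 155 against 42.6 and 40.1 CPM), PDK3, which restrains entry of pyruvate into the mitochondrion (146 and 125 against 22.6 and 22.2 CPM), and ENO2, a glycolytic enolase (90.8 and 83.2 against 31.2 and 27.3 CPM), were lower in SW620. PCK2 and FBP1, enzymes of gluconeogenesis, were higher: PCK2 had 65.2 and 82.5 against 194 and 202 CPM, and FBP1 1 count in SW480 and 3.59 and 4.41 CPM in SW620. The rest of the 7 higher genes were the glycolytic enzymes PFKP and PGK1, and PFKFB3, PDK1 and TKT. They were picked after their values were seen.

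Oxidative phosphorylation differed little. Of 36 nuclear-encoded subunits 13 were lower and 4 higher in SW620, 1 of them past 2-fold, and the median was -0.16. NDUFA4 measured 234 and 339.6 CPM in SW480 and 141 and 149 CPM in SW620 (-0.98 ± 0.15, adjusted p = 2.28e-05). The 4 higher subunits were NDUFV2 (1.47 ± 0.21), NDUFB8 (1.09 ± 0.20) and, named after their values were seen, UQCRC2 (0.49 ± 0.12) and UQCRH (0.35 ± 0.13), and NDUFV2 and NDUFB8 share exon bases on the same strand with another gene. UQCRH lost its call without SW480 control replicate 1 (adjusted p = 0.268), SW620 control replicate 1 (0.0802) or SW620 control replicate 2 (0.171). Without SW480 control replicate 2, 8 subunits were higher and 7 lower, and without SW620 control replicate 1, 7 were lower. None of the 13 mRNAs encoded in the mitochondrial genome was called, with a median of -0.08. The standard error of MT-CO3 was 0.66, and MT-ND6 (-0.44 ± 0.48) passed the test in a fit of the 4 control libraries alone (adjusted p = 0.0221) and without SW480 caffeine replicate 1 (0.0131) or 2 (0.0135).

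Fatty acid genes were near the background, 9 of 32 higher (28.1%) and 13 lower (40.6%), against 30.7% and 37.2% of protein-coding genes. Past 2-fold 3 were higher and 8 lower. The median was -0.24, and 2 members of 1 enzyme family differed in opposite directions. ACSL1, which activates long-chain fatty acids, had 204 and 193 CPM in SW480 and 13.97 and 15.8 CPM in SW620 (-3.74 ± 0.15, adjusted p = 1.03e-12), while ACSL5, its intestinal relative, had 1.997 and 1.93 against 82.3 and 79.3 CPM (5.36 ± 0.17, adjusted p = 1.08e-13). The nuclear receptor PPARD (176 and 153 against 18.9 and 17.9 CPM) and the desaturase FADS2 (88.8 and 89.4 against 16.3 and 18.9 CPM) were lower in SW620. PLIN2, which coats lipid droplets, was higher (18.7 and 21.8 against 99.4 and 106 CPM), and FABP6, the ileal bile acid binding protein, had 3 counts in SW480 and 10.3 and 11.3 CPM in SW620 (ratio 121, 95% counting interval 41.2 to 590.0).

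Cholesterol synthesis and transport genes were mostly lower in SW620. Of 28 tested genes 20 were lower and 5 higher (8 and 1 past 2-fold), with a median of -0.74, and 37.2% of protein-coding genes were lower. SQLE, the squalene epoxidase, had 152 and 166 CPM in SW480 and 41.1 and 40.1 CPM in SW620 (-1.97 ± 0.12, adjusted p = 3.91e-10). INSIG1, which holds back the activation of sterol regulators, had 166 and 204 against 41.1 and 42.4 CPM (-2.15 ± 0.14, adjusted p = 3.97e-10), and FDPS, which makes farnesyl diphosphate, 178 and 228 against 71.6 and 75.3 CPM. SC5D and the sterol carrier STARD4 were lower as well (-1.54 ± 0.13 and -1.76 ± 0.13).

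Higher members included NPC1L1, the intestinal cholesterol importer (0.363 and 0.0584 against 13.3 and 13.8 CPM, 5.98 ± 0.34), and, named after their values were seen, FDFT1, the squalene synthase (0.86 ± 0.14), SREBF2, the sterol regulator itself (0.68 ± 0.15), and ABCA1 (0.97 ± 0.32). Without SW620 control replicate 1, 3 were higher. ABCA1 lost its call when SW480 control replicate 2 (adjusted p = 0.251) or SW620 control replicate 1 (0.0870) was left out.

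Serine, one-carbon and amino acid genes were higher in SW620, 20 of 35 against 8 lower, with a median of 0.72. SLC7A11, the cystine importer, had 6.96 and 7.70 CPM in SW480 and 233 and 236 CPM in SW620, a log2 difference of 4.997 ± 0.17 (SE, adjusted p = 2.34e-13). PSAT1 of serine synthesis (158 and 173 against 545 and 591 CPM, 1.78 ± 0.12, adjusted p = 1.07e-09) was higher, as were PHGDH (1.29 ± 0.13) and SHMT2 (0.84 ± 0.13), the first enzyme of the pathway and the mitochondrial enzyme that uses serine, both named after their values were seen. ASS1, which builds arginine (185 and 222 against 765 and 759.8 CPM), PYCR1, which makes proline (104 and 117 against 385 and 397 CPM), and the transaminase GPT2 (66.7 and 66.9 against 292 and 268 CPM) were higher too. ARG2, which breaks down arginine, was lower, at 149 and 149 against 23.3 and 24.5 CPM (-2.64 ± 0.13, adjusted p = 1.96e-11).

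Redox genes were higher for 11 and lower for 18 of 35, with a median of -0.33, while past 2-fold 8 were higher and 6 lower. GPX2, the glutathione peroxidase of gut epithelium, had 2.54 and 4.49 CPM in SW480 and 421 and 434 CPM in SW620, a log2 difference of 6.92 ± 0.21 (SE, adjusted p = 5.92e-14). The aldo-keto reductase AKR1B1 had 0.182 and 0.292 against 29.7 and 31.1 CPM (6.96 ± 0.26, adjusted p = 6.74e-13), and AKR1C3 3 counts against 58.95 and 62.5 CPM (ratio 682, 95% counting interval 233 to 3308), with the caution that AKR1C genes are near copies of each other. GSTO2 (1.997 and 3.21 against 128 and 128 CPM) and MGST1 (5.81 and 7.47 against 105 and 103 CPM), both glutathione transferases, were higher, and GSTM4 was lower (24.9 and 28.5 against 5.92 and 6.82 CPM). NFE2L2, the regulator of many of these genes, was lower (-0.33 ± 0.13) and lost its call without SW620 control replicate 1 (adjusted p = 0.167) or 2 (0.0865), while its target FTL was lower too (-1.60 ± 0.15). Other targets in the list went both ways: NQO1 and GCLC were called higher, GCLM, HMOX1 and SRXN1 lower, and TXNRD1 was not called. NFE2L2, FTL and these other targets were chosen after their values were seen.

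Drug handling genes were balanced, 12 higher and 12 lower of 30, with a median of -0.07. ALDH1A3, which makes retinoic acid, had 397 and 394 CPM in SW480 and 10.4 and 9.87 CPM in SW620 (-5.29 ± 0.14, adjusted p = 1.66e-14), and the phospholipid transporter ABCB4 15.8 and 13.02 against 0.658 and 0.200 CPM. Efflux pumps ABCC2 (1.88 and 0.876 against 73.3 and 78.4 CPM, 5.79 ± 0.23, adjusted p = 1.16e-12) and ABCC3 (44.4 and 36.8 against 137 and 135 CPM) and the esterase CES3 (0.787 and 1.05 against 9.16 and 8.57 CPM) were higher in SW620. Efflux pumps were not all higher. ABCB1 and ABCC6 were lower in SW620 past 2-fold, and ABCC1, ABCC4 and ABCC5 were not called, all picked after their values were seen. DPYD, which breaks down 5-fluorouracil, had 1 count in SW480 and 8.35 and 9.87 CPM in SW620, a ratio of 307 (95% counting interval 54.7 to 12151).

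**Figure D3:**
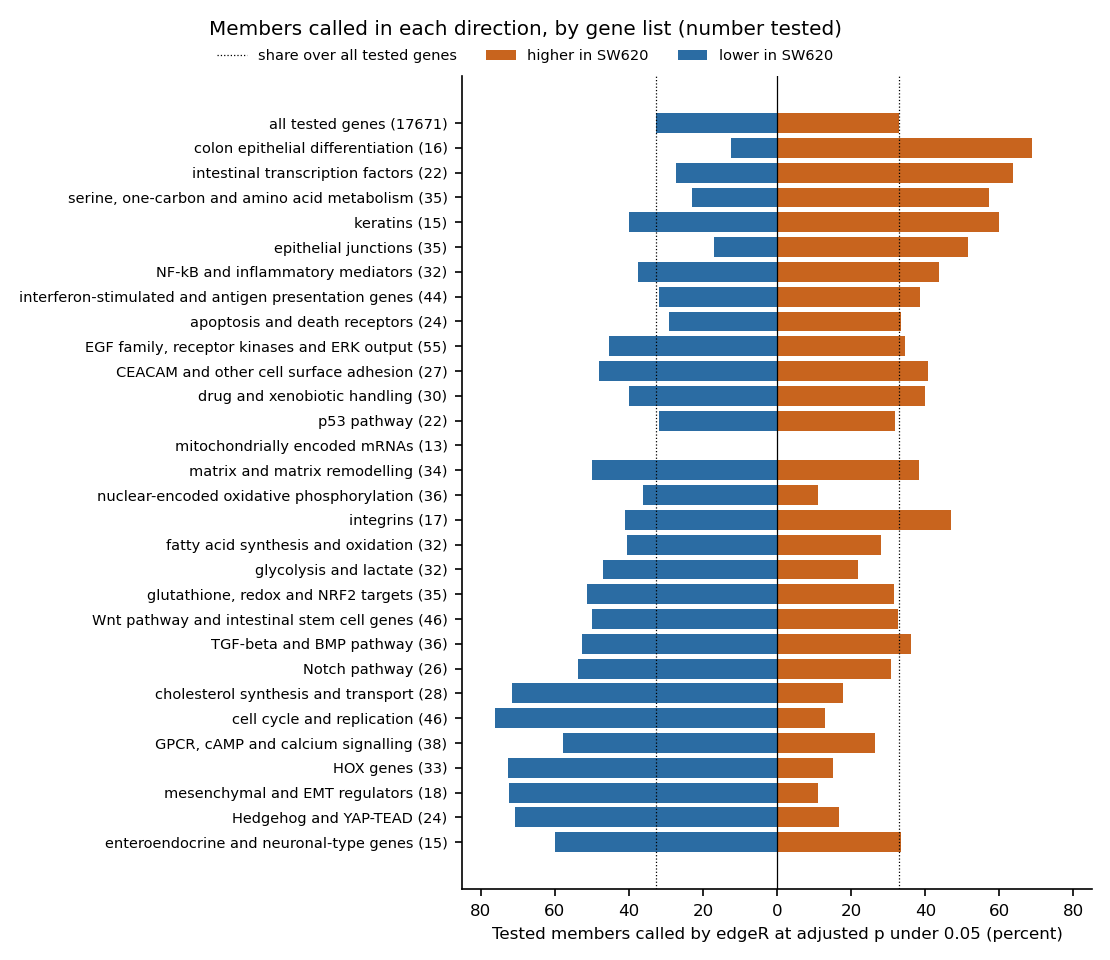
Percent of tested members of each gene list called higher (orange, right) or lower (blue, left) in SW620, with the number tested in brackets, ordered by the list's median log2 difference. Dotted lines mark the shares over all 17671 tested genes, 33% and 32.6%.

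Wnt pathway and stem cell genes were called in 38 of 46 cases, 15 higher and 23 lower in SW620, with 29 past 2-fold and a median of -0.45. Among ligands, WNT5A, which signals without beta-catenin, had 98.7 and 85.6 CPM in SW480 and 3 counts in SW620, a ratio of 1218 (95% counting interval 416 to 5910) in favour of SW480, and WNT6 had 76.4 and 100.5 against 0.304 and 0.301 CPM (-8.16 ± 0.27, adjusted p = 1.55e-13). Receptors were split, and FZD7 had 64.1 and 58.1 against 0.860 and 0.551 CPM (-6.42 ± 0.23, adjusted p = 2.93e-13). FZD1, FZD4 and FZD8 were also lower in SW620 past 2-fold, and FZD5, FZD10 and the co-receptors LRP5 and LRP6 higher past 2-fold. FZD2 and FZD3 were not called, and all receptors but FZD7 were picked after their values were seen. DKK4 and APCDD1, a secreted and a membrane-bound inhibitor of the pathway, were higher in SW480: DKK4 had 1414 and 1516 CPM there and 0.759 and 1.30 CPM in SW620 (-10.46 ± 0.24, adjusted p = 5.52e-15), and APCDD1 1885 and 1843 against 69.7 and 69.2 CPM (-4.75 ± 0.15, adjusted p = 6.5e-14).

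Other targets differed in both directions. AXIN2, the usual readout of the pathway, was lower, with a log2 difference of -1.07 ± 0.12 (SE, adjusted p = 5.59e-07), at 447 and 413 CPM in SW480 and 206 and 203 CPM in SW620, as was TNFRSF19 (-5.15 ± 0.19). NOTUM, a secreted enzyme that inactivates Wnt ligands, was higher in SW620 (186 and 218 against 1029 and 984 CPM, 2.32 ± 0.13, adjusted p = 1.1e-10). Of genes tied to crypt stem cells SMOC2, LGR5 and EPHB2 were higher, ASCL2 and LGR4 were not called, and RNF43 was lower, as was TNFRSF19: SMOC2 had 2 counts in SW480 and 115 and 117 CPM in SW620 (ratio 1952, 95% counting interval 540.0 to 16121), LGR5, the R-spondin receptor, 7.14 and 6.77 against 116 and 114 CPM (4.04 ± 0.16, adjusted p = 7.96e-13), and EPHB2 34.9 and 33.1 against 242 and 214 CPM (2.75 ± 0.14, adjusted p = 1.64e-11). AXIN2, TNFRSF19, NOTUM, LGR5, EPHB2, ASCL2, LGR4 and RNF43 were chosen after their values were seen.

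Notch signalling differed at receptor, modifier and target. Of 26 genes 8 were higher and 14 lower in SW620, with a median of -0.56 (5 higher without SW620 control replicate 1). The receptor NOTCH2 had 91.5 and 67.4 CPM in SW480 and 0.152 and 0.301 CPM in SW620 (-8.41 ± 0.29, adjusted p = 2.34e-13). The glycosyltransferases that tune the receptors were higher in SW620, MFNG with 2.24 and 2.74 against 157 and 157 CPM (5.97 ± 0.18, adjusted p = 5.35e-14) and LFNG with 11.5 and 13.4 against 80.4 and 75.02 CPM (2.64 ± 0.15, adjusted p = 7.14e-11). The targets HES7 (38.1 and 39.8 against 0.961 and 1.10 CPM), HEY2 (16.2 and 18.1 against 0.810 and 0.651 CPM) and NRARP (73.8 and 72.3 against 7.44 and 6.82 CPM) were lower. HES5 had 5.20 and 7.24 CPM in SW480 and no count in SW620, while HES1, the main target in gut, did not pass the test (-0.16 ± 0.11, adjusted p = 0.227), both named after their values were seen.

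Receptor tyrosine kinases and their ligands differed in both directions. Of 55 genes 19 were higher and 25 lower in SW620 (15 and 11 past 2-fold), with a median of 0.04, and in the caffeine libraries 28 were higher and 15 lower. EGFR had 103 and 76.2 CPM in the SW480 controls and 0.152 and 0.401 CPM in the SW620 controls, a log2 difference of -8.30 ± 0.30 (SE, adjusted p = 3.05e-13). Its relative ERBB3 went the other way, with 77.1 and 63.8 against 444 and 424 CPM (2.62 ± 0.13, adjusted p = 1.45e-11). The ephrin receptor EPHA4 was lower (44.2 and 33.5 against 0.911 and 1.05 CPM), and the ephrin EFNB2 higher (2.24 and 1.93 against 71.2 and 67.6 CPM).

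MET, the receptor of hepatocyte growth factor, was higher in SW620 (26.6 and 19.8 against 144 and 149 CPM, 2.66 ± 0.15, adjusted p = 8.65e-11), as was FGFR4 (36.6 and 42.7 against 246 and 228 CPM, 2.58 ± 0.15, adjusted p = 1.28e-10), while FGFR2 had 7.08 and 6.19 CPM in SW480 and 1 count in SW620. The EGFR ligands AREG and EREG had 3 counts and 1 count in SW480 and 8.55 and 8.57 and 2.73 and 4.16 CPM in SW620, ratios of 96.05 (95% counting interval 32.6 to 468) and 116 (95% counting interval 20.5 to 4619). All 5 were chosen after their values were seen. IGFBP3, which binds insulin-like growth factors, had 101 and 89.01 against 1.16 and 1.40 CPM (-6.20 ± 0.19, adjusted p = 7.36e-14). PHLDA1, a target of ERK signalling, had 124 and 131 CPM in SW480 and 1100 and 1069 CPM in SW620 (3.09 ± 0.13, adjusted p = 2.25e-12), and DUSP6, a phosphatase induced by ERK and named after its values were seen, was higher (0.58 ± 0.12). SPRY4, ETV4, FOSL1, SPRED2 and DUSP5, further outputs of ERK in the list, were called lower, and SPRY1, SPRY2 and DUSP4 higher. EGR1, ETV1, ETV5 and SPRED1 were not called. All of these further outputs were picked after their values were seen.

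In the TGF-beta and BMP pathway 13 of 36 genes were higher and 19 lower, with a median of -0.51, and the 2 receptor chains differed in opposite directions. TGFBR2, the ligand-binding chain, had 21.4 and 20.5 CPM in SW480 and 169 and 174 CPM in SW620 (3.03 ± 0.17, adjusted p = 1.15e-10). TGFBR1, the signalling chain, had 112 and 91.9 against 22.5 and 21.1 CPM (-2.23 ± 0.15, adjusted p = 9.01e-10), and the co-receptor TGFBR3 5.20 and 4.79 against 26.6 and 28.3 CPM. Activin subunits INHBB (69.04 and 65.9 against 349.97 and 321 CPM) and INHBE (4.60 and 5.25 against 73.8 and 80.3 CPM) were higher in SW620. Of the inhibitory SMADs, SMAD6 was higher (11.9 and 10.3 against 103 and 98.98 CPM) and SMAD7, named after its values were seen, lower (42.5 and 38.4 against 10.3 and 7.92 CPM). The ligand TGFB1, also chosen so, was lower (-1.19 ± 0.12).

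Hedgehog and YAP-TEAD genes were lower in SW620, 17 of 24 against 4 higher, with a median of -1.29 (2 higher without SW620 control replicate 2). GLI3, the repressor-type factor of the Hedgehog pathway, had 220.3 and 162 CPM in SW480 and 0.405 and 0.401 CPM in SW620 (-8.87 ± 0.25, adjusted p = 2.57e-14). ANKRD1, a YAP target, had 152 and 135 against 0.304 and 0.251 CPM (-8.98 ± 0.22, adjusted p = 8.16e-15), and CRIM1, another, 72.7 and 52.2 against 2.18 and 2.86 CPM. The DNA-binding partner TEAD2 (-2.54 ± 0.14) and the kinase LATS2, which inhibits YAP (-2.38 ± 0.17), were lower too. Higher genes, named after their values were seen, included VGLL4 (0.79 ± 0.17), CCN2 (0.73 ± 0.26) and AJUBA (0.52 ± 0.14). CCN2 lost its call in DESeq2 (adjusted p = 0.0713) and when SW480 control replicate 1 (0.0513) or 2 (0.0911) or SW620 control replicate 2 (0.144) was left out, and AJUBA without SW620 control replicate 2 (0.0512).

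**Figure D4:**
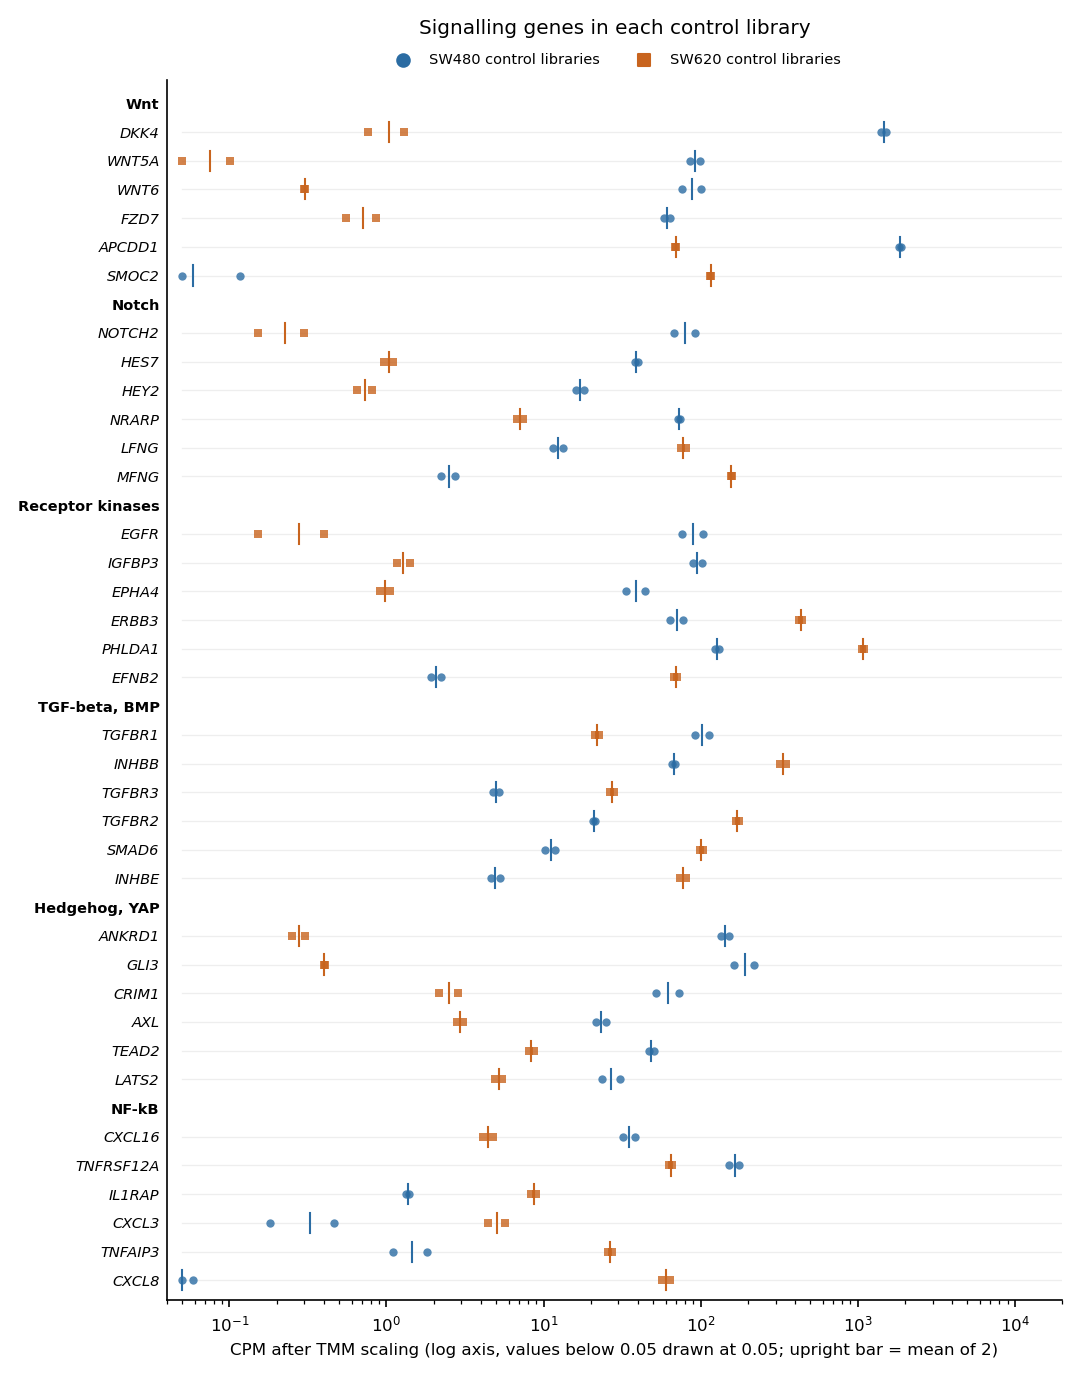
CPM (x, log axis, values below 0.05 drawn at 0.05) of signalling genes in each SW480 control library (blue circles) and SW620 control library (orange squares), with an upright bar at the mean of 2. DKK4, WNT5A, EGFR, ANKRD1 and GLI3 lie far to the right in SW480 and CXCL8 in SW620.

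In the p53 list 7 of 22 genes were higher and 7 lower, shares of 31.8% each that are near the background. CDKN1A, the p21 inhibitor of the cell cycle, had 81.2 and 92.4 CPM in SW480 and 3.998 and 5.06 CPM in SW620 (-4.26 ± 0.17, adjusted p = 1.19e-12). The neighbouring inhibitors CDKN2A (16.4 and 19.8 against 104 and 95.8 CPM) and CDKN2B (6.05 and 5.95 against 55.3 and 54.6 CPM) were higher in SW620, as were the stress protein SESN2 (10.7 and 9.86 against 71.1 and 67.6 CPM) and TP53I3 (1.62 ± 0.14), and the death receptor FAS was lower (-1.96 ± 0.18).

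NF-kB and inflammatory genes were higher for 14 and lower for 12 of 32, with a median of 0.21. CXCL8, a neutrophil attractant, had 1 count in SW480 and 56.9 and 64.2 CPM in SW620, a ratio of 2039 (95% counting interval 366 to 80572). The feedback inhibitor TNFAIP3 had 1.82 and 1.11 against 25.8 and 27.2 CPM (4.18 ± 0.21, adjusted p = 2.19e-11), the inhibitor NFKBIA, named after its values were seen, 16.2 and 15.2 against 40.3 and 39.8 CPM, and the chemokine CXCL3 0.182 and 0.467 against 4.40 and 5.71 CPM. The receptor subunit IL1RAP was higher (2.66 ± 0.23), and the chemokine CXCL16 (38.4 and 32.05 against 4.76 and 4.11 CPM) and the TWEAK receptor TNFRSF12A (153 and 176 against 66.1 and 63.05 CPM) were lower.

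Interferon-stimulated and antigen presentation genes were near the background, 17 of 44 higher (38.6%) and 14 lower (31.8%), with a median of 0.19. Over all tested genes 33% were higher and 32.6% lower. Past 2-fold 9 list members were higher and 8 lower. Membrane-bound antiviral proteins were lower in SW620: IFITM3 had 305 and 376 CPM in SW480 and 8.86 and 7.87 CPM in SW620 (-5.35 ± 0.23, adjusted p = 2.64e-12), BST2 119.9 and 138 against 13.1 and 12.7 CPM (-3.32 ± 0.15, adjusted p = 4.02e-12), and IFI27, a mitochondrial member, 103 and 161 against 1.16 and 1.40 CPM (-6.68 ± 0.26, adjusted p = 8.16e-13). OAS2 was lower (-2.34 ± 0.20) and its relative OAS1 higher (2.12 ± 0.16). IFIT1, IFIT2, IFIT3, ISG20 and OASL were also higher past 2-fold, and IFITM1 and IFITM2 lower, all picked after their values were seen. NLRC5, the activator of MHC class I genes, was higher, at 9.32 and 8.93 against 37.8 and 34.7 CPM (1.99 ± 0.15, adjusted p = 4.72e-09), and so was B2M, the shared light chain of class I molecules (296 and 358 against 569 and 623 CPM, 0.87 ± 0.13), named after its values were seen. IFITM genes have near copies, and reads shared between copies may be missing from these counts.

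Receptor, cAMP and calcium signalling genes were lower for 22 and higher for 10 of 38, with a median of -1.0004. GNAS, the stimulatory G protein of adenylyl cyclase, had 2906 and 2983 CPM in SW480 and 791 and 734 CPM in SW620 (-1.95 ± 0.13, adjusted p = 1.15e-09), and GNAI1, an inhibitory one, 128 and 144 against 36.99 and 40.2 CPM (-1.82 ± 0.13, adjusted p = 1.39e-09). GNG4 (-2.20 ± 0.14), the chemokine receptor CXCR4 (38.3 and 36.3 against 6.83 and 6.06 CPM) and the calcium pump ATP2A3 (15.2 and 15.8 against 0.506 and 0.351 CPM) were also lower. PDE10A, a phosphodiesterase named after its values were seen, had 5.08 and 4.49 CPM in SW480 and no count in SW620. F2RL1, a protease-activated receptor, was higher in SW620 (5.32 and 4.26 against 29.7 and 31.4 CPM).

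Cell cycle genes were the list with the highest share lower in SW620, 35 of 46 (76.1%) against 6 higher, with a median of -0.82 and 11 past 2-fold. CCND1, cyclin D1, had 1065 and 829 CPM in SW480 and 191 and 202 CPM in SW620 (-2.27 ± 0.14, adjusted p = 3.72e-10), and CCND2 165 and 142 against 6.53 and 5.41 CPM (-4.68 ± 0.16, adjusted p = 2.65e-13). The mitotic genes BUB1 (205 and 201 against 44.9 and 48.3 CPM), AURKA (191 and 214 against 49.9 and 51.9 CPM) and TPX2 (421 and 417 against 132 and 134 CPM) were lower, and so was the inhibitor CDKN2C (-2.21 ± 0.16). MKI67, the Ki-67 proliferation marker, chosen after its values were seen, had 522 and 375 against 192 and 189.6 CPM (-1.23 ± 0.16, adjusted p = 4.23e-06).

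The 6 cell cycle genes higher in SW620, all named after their values were seen, were CDT1 (0.84 ± 0.13), MCM5 (0.66 ± 0.12), GINS2 (0.54 ± 0.16), CDK6 (0.51 ± 0.16), E2F2 (0.45 ± 0.16) and MCM3 (0.43 ± 0.13). Other replication genes of the list, picked in the same way, were called lower (MCM4, MCM6, MCM7, PCNA and RRM1) or not called (MCM2). Without SW620 control replicate 1, or without replicate 2, 3 cell cycle genes were higher. GINS2 lost its call when SW480 control replicate 1 (adjusted p = 0.109) or SW620 control replicate 2 (0.0898) was left out, and CDK6 without SW480 control replicate 2 (0.174) or SW620 control replicate 1 (0.0508). E2F2 lost it without SW480 control replicate 1 (0.0787), SW620 control replicate 1 (0.104) or SW620 control replicate 2 (0.0713), and MCM3 without SW620 control replicate 1 (0.0507) or 2 (0.0531). Apoptosis genes were near the background, 8 of 24 higher (33.3%) and 7 lower (29.2%). The inflammatory caspase CASP4 (3.87 and 4.14 against 25.4 and 28.2 CPM) and the ligands TNFSF15 (0.968 and 1.05 against 11.5 and 13.8 CPM) and TNFSF10 (7.99 and 8.23 against 23.4 and 23.003 CPM) were higher in SW620. Among the 7 lower genes were BMF, past 2-fold, and BCL2L1, BCL2L11, BID and BAD, picked after their values were seen.

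Several of the largest changes belonged to none of these lists. PMP22, a membrane protein of junctions and myelin, had 219.6 and 243 CPM in SW480 and 0.0506 and 0.150 CPM in SW620 (-11.07 ± 0.28, adjusted p = 8.16e-15). The secreted factors NELL2 (618 and 597 against 1.06 and 0.551 CPM), CST1 (285 and 376 against 0.253 and 0.200 CPM) and EDN3, an endothelin (301 and 288 against 0.253 and 0.150 CPM), were also lower, and the mucin MUC16, the antigen CA125, had 59.1 and 52.2 CPM against 2 counts. Higher in SW620 were LCP1, an actin bundler best known from leukocytes (1.15 and 0.584 against 629 and 652 CPM, 9.53 ± 0.22, adjusted p = 6.17e-15), and CNN3, a calponin (0.121 and 0.233 against 207 and 226 CPM, 10.19 ± 0.25, adjusted p = 7.37e-15). The leukocyte marker PTPRC was at 0 in every control library.

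Differences were not spread evenly along the genome. Over 13645 tested protein-coding genes the median log2 difference was -0.07, and per chromosome it ran from -0.87 on chromosome 20 to 0.55 on chromosome 10. On chromosome 20, 280 of 372 genes (75.3%) were lower in SW620 and 37 higher, and chromosomes 7 (-0.69), 11 (-0.56) and 2 (-0.45) followed. On chromosome 10, 311 of 529 genes (58.8%) were higher and 105 lower, and chromosome 16 had a median of 0.33. Medians of the caffeine libraries were -0.93 on chromosome 20 and 0.61 on chromosome 10.

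**Figure D5:**
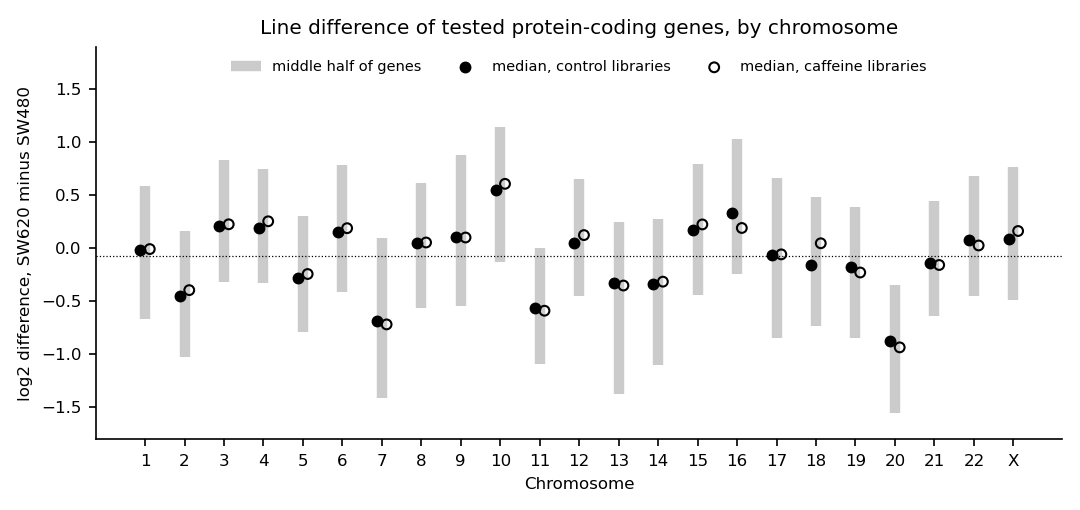
Log2 difference (y, SW620 minus SW480) of tested protein-coding genes by chromosome (x), with grey bars from the 25th to the 75th percentile, filled circles at the median in the control libraries and open circles at the median in the caffeine libraries. The dotted line is the median over all chromosomes, -0.07, and chromosome 20 lies lowest and chromosome 10 highest.

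Single stretches stood further out than whole chromosomes. Among 152 windows of 20 Mb with at least 20 tested genes, the median passed 0.5 in 12 and -0.5 in 27. On chromosome 9 the first 20 Mb had a median of 1.41, with 32 of 41 genes higher in SW620. On chromosome 16 the window from 60 to 80 Mb, which holds CDH1 and MARVELD3 and also CDH3, lower in SW620, had a median of 1.13, with 115 of 134 higher. Windows with low medians were chromosome 7 from 100 to 120 Mb (-1.23, 83 of 113 lower), chromosome 13 from 20 to 40 Mb (-1.23, 53 of 72 lower) and chromosome 20 from 40 to 60 Mb (-1.13, 90 of 115 lower). The window of chromosome 7 from 20 to 40 Mb (-1.11), which holds the HOXA cluster, had 59 of 77 genes lower. Chromosome 17 was divided, with -0.77 in its first 20 Mb and 0.69 from 60 to 80 Mb. DNA copy number was not measured, and neighbouring genes are not independent, so no test was made.

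The same lines were compared in the 4 caffeine libraries, which share no library with the control comparison, although they share its estimate of the spread. The labels do not say which caffeine dose or exposure time applies to them. There 11722 of 17671 genes (66.3%) were called. Of the 11591 genes called in the controls 9369 were called in the same direction with caffeine (80.8% of the control calls and 79.9% of the caffeine calls), 119 in the opposite direction and 2103 not at all. Of the 4875 control genes past 2-fold, 4631 had any difference called in the same direction with caffeine and 10 in the opposite one. By the 2-fold test in both comparisons, 3830 were called in the same direction, 1 in the opposite one and 1044 not at all. CDH1 differed by 10.38 on the log2 scale in the caffeine libraries, CD44 by -9.58, KRT5 by -10.54, EHF by 10.45 and EGFR by -9.11. The line difference itself differed between caffeine and control libraries, by edgeR's interaction test, for 1185 genes (6.71%) and for 56 of the 299 named genes. The named genes were picked in part by adjusted p and size of change, so the 2 counts are not comparable. VIM, which did not pass in the controls, was higher in SW620 there (1.37, adjusted p = 4.34e-07), and ENO2, lower in the SW620 controls, was higher with caffeine (0.60, adjusted p = 0.000619).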

How the data were processed

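Poly(A) RNA with a RIN of at least 8 was sequenced from directional libraries as single-end reads of 75 bases, per the labels. The authors deposited raw counts per gene for each library. The submitters' processing notes name Trim Galore, STAR 2.7.3a, featureCounts 2.0.5 and hg38, and the strand setting and annotation release are not given in the sources used here. The files list 62649 genes, and 12 lines of assignment totals were left out. Of the gene IDs 62625 matched a symbol, and coordinates were taken from GENCODE 29. Of 299 named genes 116 share exon bases with another gene, 38 of them on the same strand, and their counts are uncertain. Among these are ELF3, ERBB3, ITGB6, CCND2, AXIN2, MACC1, PHLDB2 and HOXB4. Members of the AKR1C, GSTM, CXCL, IFITM and keratin families can share reads.

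Counts of all 8 libraries were fitted with edgeR 4.0.16 in R 4.3.3 (TMM scaling, filterByExpr, robust quasi-likelihood fit, 4 group means). SW620 controls were contrasted with SW480 controls, the 2-fold test was glmTreat, and p-values were adjusted over 17671 genes by the Benjamini-Hochberg method. SE is the size of the log2 difference divided by the square root of F. Genes with no count in 1 line are given as bounds against 3 counts over both of its libraries, and genes with 1 to 3 counts as a ratio with a 95% counting interval. The named genes are the 20 largest changes per direction with a mean of at least 1 on the log2 CPM scale, up to 6 genes per list and genes fixed for identity, 222 in all, and 77 others with values were named after these were seen. Some genes are not reported here. The comparison and the gene lists were chosen with earlier results of these data known. Promoter windows come from RefSeq (GRCh38.p14). Alternatives were DESeq2 size factors, library totals, no filter, the control libraries alone, a replicate block, leaving out each library, DESeq2 1.42.0 and limma-voom (limma 3.58.1).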

Additional observations from a re-analysis of the deposited data

Results flagged for a closer look

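By edgeR's test of the interaction at an adjusted p under 0.05, the line difference differed between caffeine and control libraries for 56 named genes. Over all tested genes it differed for 1185 (6.71%). The named genes were picked in part by adjusted p and size of change, so their share is not comparable with that. Values are the line difference (SW620 minus SW480, log2) in the caffeine libraries minus that in the controls, ± SE, and the dose behind the caffeine libraries is not stated.

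Among metabolic genes the value was above 0 for SLC2A1 (1.03 ± 0.17), SLC2A3 (2.78 ± 0.19), LDHA (1.10 ± 0.19), GAPDH (0.75 ± 0.21), HK1 (1.42 ± 0.17), PDK3 (1.24 ± 0.18), ENO2 (2.17 ± 0.19), ACSL1 (0.74 ± 0.19), PLIN2 (1.10 ± 0.19) and ARG2 (0.71 ± 0.18). It was below 0 for ABCA1 (-1.92 ± 0.46), PSAT1 (-1.003 ± 0.17), PHGDH (-0.91 ± 0.19), GPT2 (-0.89 ± 0.17), SLC7A11 (-1.23 ± 0.22) and CES3 (-2.15 ± 0.34).

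Among lineage, adhesion and matrix genes the value was above 0 for CDH1 (2.46 ± 0.45), CLDN1 (0.95 ± 0.21), MUC13 (0.88 ± 0.25), KRT81 (1.28 ± 0.27), VIM (1.43 ± 0.21), FN1 (1.26 ± 0.20), AXL (1.50 ± 0.24), ITGB4 (0.68 ± 0.17), ITGB5 (0.66 ± 0.16), LAMB3 (0.75 ± 0.22), COL13A1 (5.46 ± 1.35), L1CAM (1.61 ± 0.22) and VWF (1.75 ± 0.41). It was below 0 for TFF3 (-3.04 ± 0.80), KRT5 (-1.09 ± 0.24) and HOXD9 (-0.99 ± 0.22).

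Among signalling, cell cycle and other genes the value was above 0 for AURKA (0.66 ± 0.16), BUB1 (0.90 ± 0.17), CDKN2B (0.86 ± 0.20), CRIM1 (1.22 ± 0.28), DUSP6 (0.82 ± 0.17), TEAD2 (1.12 ± 0.20), TGFB1 (1.09 ± 0.16), TGFBR3 (1.04 ± 0.24), TNFRSF12A (1.29 ± 0.18) and TNFSF10 (2.37 ± 0.29). It was below 0 for APCDD1 (-1.31 ± 0.18), BST2 (-1.07 ± 0.21), EDN3 (-5.16 ± 1.32), GINS2 (-1.28 ± 0.23), GNAI1 (-1.25 ± 0.18), GNG4 (-0.73 ± 0.19), INHBB (-0.81 ± 0.16), INHBE (-2.20 ± 0.22), LFNG (-1.02 ± 0.20), LGR5 (-0.97 ± 0.22), NELL2 (-2.04 ± 0.53), NOTUM (-0.87 ± 0.18), SESN2 (-1.23 ± 0.19) and TP53I3 (-0.88 ± 0.19).

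ENO2, HOXD9, GINS2, ABCA1 and SLC2A1 were called in the controls and had a line difference of the other sign in the caffeine libraries (0.60, -0.57, -0.74, -0.96 and 0.15 on the log2 scale). The sign alone does not mean that a difference was called there, and that of SLC2A1 was the smallest in size. COL13A1 and TFF3 had 0 and 2 counts in the controls of 1 line and EDN3 no count in the SW620 caffeine libraries, so their fitted values depend on the prior count.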

How the results depend on the processing

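Over 15 alternatives the genes called in the control comparison numbered between 9789 (without SW620 control replicate 2) and 12149 (no filter on low counts), against 11591. Each alternative kept between 82.8% and 99.2% of these calls, and no gene called both ways changed direction. DESeq2's Wald test called 10781 genes and limma-voom 11602. The share of calls higher in SW620 lay between 48.0% and 51.6%. The differences of replicate 1 minus replicate 2 correlated by 0.0105 between the SW480 and SW620 controls. The labels do not say what the replicate numbers stand for, so this value cannot tell whether same-numbered libraries shared a batch. The replicate block gave 11397 calls, 5724 higher and 5673 lower, and ended the call of HNF4A.

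Counts of 12 list directions moved by more than 1.5 times. Leaving out 1 library at a time gave 3 to 5 higher HOX genes, 0 to 2 higher cancer-testis antigens, 3 to 8 higher and 7 to 19 lower oxidative phosphorylation subunits, 0 to 1 lower mitochondrial mRNAs and 5 to 9 higher fatty acid genes. It gave 3 to 5 higher cholesterol genes, 5 to 8 higher Notch genes, 2 to 4 higher Hedgehog and YAP genes, 3 to 6 higher cell cycle genes, 0 to 1 higher leukocyte markers and 2 to 3 lower ones. In the 4 control libraries alone, 0 cancer-testis antigens were higher, 1 mitochondrial mRNA was lower and 1 leukocyte marker was lower. Fewer libraries enter these fits, and the cause was not tested. Genes that were not called changed sign with 1 library left out: MT-ND4 ran from -0.49 to 0.0195, MT-ND4L from -0.76 to 0.0761, PSMB8 from -0.0495 to 0.45, GAPDH from -0.14 to 0.0229 and VIM from -0.21 to 0.0668. Values above 0 came without SW480 control replicate 1 for MT-ND4 and MT-ND4L and without SW480 control replicate 2 for GAPDH and VIM, and the value below 0 of PSMB8 without SW480 control replicate 1. PSMB8 passed the test without SW480 control replicate 2 (adjusted p = 0.0240). With 2 libraries per group, leaving 1 out assumes that the lone library varies like the other groups.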
